A study of Mus musculus with 6 samples.

Results

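The genes described here encode SR proteins and core parts of the spliceosome, 41 genes in all of the 23337 gene rows measured in the nuclear RNA of mouse neural precursor cells. They were chosen by name as members of these families, with earlier results of these data known, and were placed in 7 classes by role: 12 SR proteins and TRA2 splicing activators, 4 large SR-related proteins, 3 CLK kinases, 4 genes of the U1 particle and its LUC7-like partners, 7 subunits of the SF3A and SF3B complexes, 3 factors that recognise the branch point and the 3′ splice site, and 8 PRPF and U5 proteins. All 41 had a row and enough counts to be tested. The cells were precursors taken from the dorsal forebrain of mouse embryos at stage E13.5. They were grown with the growth factors EGF and FGF2 (20 ng/ml of either) and used at passage 6 to 7. There were 3 wild-type (WT) lines, numbered 3, 8 and 19, and 3 lines labelled Fmr1 knockout (KO), numbered 3, 13 and 16, and the series' design text calls the lines of a genotype independent. Each library is the nuclear fraction of 1 line. The labels name no allele, strain or promoter, so the deletion is known here only as Fmr1 KO. Fmr1 encodes FMRP, an RNA-binding protein whose loss causes fragile X syndrome in people, and the comparison asks how nuclear RNA differs when it is disrupted.

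Introns are removed by the spliceosome, which is built on each intron from small nuclear ribonucleoprotein particles. U1, with Snrnp70 as one of its proteins, binds the 5′ splice site. SF1 and the U2AF dimer bind the branch point and the 3′ splice site before U2, which carries SF3A and SF3B, takes over the branch point. The U4/U6.U5 particle then joins, with PRPF8 at its centre and the helicase SNRNP200 unwinding U4 from U6. SR proteins have RNA-binding domains and a tail rich in arginine and serine; they bind exonic enhancers and recruit these parts, and CLK kinases phosphorylate the tails and so release SR proteins from nuclear speckles. Most SR protein genes also control themselves through a poison exon, a cassette exon with an early stop codon, and RNA that includes it is degraded or stays in the nucleus. Clk1 and Clk4 RNA is known to be held in the nucleus with introns still in place. Nuclear RNA therefore holds both productive and unproductive forms of these genes, and counts per gene do not separate them.

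A cassette exon that ends the reading frame was annotated for 14 of the 41 genes in GENCODE release M21 (GRCm38), 7 of them among the 12 SR and TRA2 genes. It was defined as an internal exon of a transcript annotated for nonsense-mediated decay that overlaps no exon of a protein-coding transcript and holds the stop codon. The share of all genes with such an exon was not computed. A gene without one under this rule may still make unproductive RNA: Srsf1, Srsf2, Srsf5 and Srsf6 have none but have transcripts annotated for decay. The 5 exons below were picked as examples with the measurements that follow in view, and those of Srsf9 and Srsf11 are not shown. Srsf4 was higher and Tra2a lower, while Srsf7, Tra2b and Srsf3 did not pass over all libraries and varied between the lines labelled KO. Each is written 5′ to 3′ from the first base of the exon to the stop codon, which is in capitals, with the position of the whole exon.
Srsf3 (chr17:29039454-29039909, plus strand): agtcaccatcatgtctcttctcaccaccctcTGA
Srsf4 (chr4:131884276-131884482, plus strand): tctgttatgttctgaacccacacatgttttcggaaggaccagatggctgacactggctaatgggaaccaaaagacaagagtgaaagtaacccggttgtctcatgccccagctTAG
Srsf7 (chr17:80204622-80205081, minus strand): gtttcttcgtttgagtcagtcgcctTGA
Tra2a (chr6:49252803-49253108, minus strand): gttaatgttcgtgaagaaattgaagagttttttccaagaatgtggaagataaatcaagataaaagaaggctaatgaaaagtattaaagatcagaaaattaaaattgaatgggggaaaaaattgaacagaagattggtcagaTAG
Tra2b (chr16:22258986-22259261, minus strand): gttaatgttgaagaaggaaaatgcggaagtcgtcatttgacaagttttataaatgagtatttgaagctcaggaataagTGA
The frame ends after 25 coding bases of the cassette exon in Srsf7 and after 31 in Srsf3, against 141 in Tra2a. The exons of the paralogs Tra2a and Tra2b both begin with the same 9 bases. At least 1 transcript annotated for nonsense-mediated decay was listed for 28 of the 41 genes (68.3%), against 20.8% of the 21951 protein-coding genes of the release, and a transcript with a retained intron for 37 of 41 (90.2%), against 41.5%. The annotation does not give the amount of these forms in the libraries. The shares of 20.8% and 41.5% take in protein-coding genes that were not tested here, and shares among the tested genes were not computed. Median exon length was 6822 bases over the 41 genes and 4475 bases over the tested genes with a value.

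Total counts ran from 18702738 to 26789522 per library, so that 1 count was worth 0.0373 to 0.0535 CPM, the unit of all levels below, which are counts scaled to library totals by edgeR's trimmed mean of M values. Fmr1 counts did not bear out the labels. Fmr1 was at 223, 269.8 and 274 CPM in WT lines 3, 8 and 19 and at 371, 188 and 153 CPM in KO lines 3, 13 and 16 (log2 fold change -0.10, SE 0.29, edgeR adjusted p = 0.795). KO line 3 lay above the WT range and KO lines 13 and 16 below it, but no library labelled KO lost its Fmr1 counts. The labels do not name the deleted part of Fmr1, and a count per gene may hold reads outside it. All directions below thus compare the libraries by their labels, and the main counts are also given without KO line 3. Xist RNA, made from an inactive X, was at 15470 and 18430 CPM in WT lines 3 and 8 and at 20510 CPM in KO line 3, and at or under 81.8 CPM in the other lines. WT line 19 held 1.85% of its counts in the ribosomal RNA precursor Rn45s, against 0.103 to 0.26% in the other 5 libraries. Actb, a mostly cytoplasmic RNA, was at 665, 852 and 678 CPM in WT and at 1141, 992 and 1393 CPM in KO lines 3, 13 and 16 (log2 fold change 0.68, SE 0.16, edgeR adjusted p = 0.00839). Of the nuclear RNAs, Neat1 was at 17.9, 21.3 and 21.3 CPM against 34.1, 35.3 and 35.7 CPM (log2 fold change 0.80, SE 0.11, edgeR adjusted p = 7.97e-04), and Malat1 did not pass (edgeR adjusted p = 0.574). Neural precursor markers were present in every library (summed 8125 to 9150 CPM in WT and 6110 to 7522 CPM in the libraries labelled KO, 1 of 12 higher and 2 lower). By the same test, given below, 21.8% of all tested genes were higher and 20.4% lower. Astrocyte markers summed to 521 to 848 and 137 to 184 CPM (6 of 8 lower), oligodendrocyte lineage markers to 62.1 to 68.7 and 104 to 112 CPM (3 of 6 tested higher, Mbp at 0 in all WT libraries), and neuron markers, mostly Map2, to 792 to 1001 and 1081 to 1659 CPM (3 of 6 tested higher). Endothelial and mesenchymal markers summed to 3.33 to 3.65 and 9.05 to 25.8 CPM (3 of 4 tested higher: Col1a1, Acta2 and Pdgfrb). Microglial markers reached at most 1.34 CPM in sum, with Tmem119 at 0 in all 6 libraries. The part of these shifts in the results below was not tested, and in bulk RNA fewer cells of a type and less RNA per cell cannot be told apart.

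Many genes of the core spliceosome and the 4 large SR-related proteins were higher in the libraries labelled KO, while the SR proteins themselves showed no common direction. A gene is called here when its adjusted p in edgeR's quasi-likelihood test, adjusted by Benjamini-Hochberg over the 13925 genes tested, is below 0.05. Over all tested genes 42.3% were called in either direction. Of the 41 genes, 19 were called higher (46.3%), against 21.8% of all tested genes, 2 were called lower (4.88%), against 20.4%, and 20 did not pass. All values of the libraries labelled KO lay above all WT values for 24 of the 41, against 28.6% of all tested genes, and below them for 3, against 25.7%; the groups were apart in either direction for 54.3% of all tested genes. The median log2 fold change was 0.31 over the 41 genes and 0.01 over all tested genes. Together the 41 genes held 1.88 to 2.01% of the counts of the WT libraries and 2.29 to 2.40% of those of the libraries labelled KO, and the 2 ranges did not overlap.

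**Figure D1:**
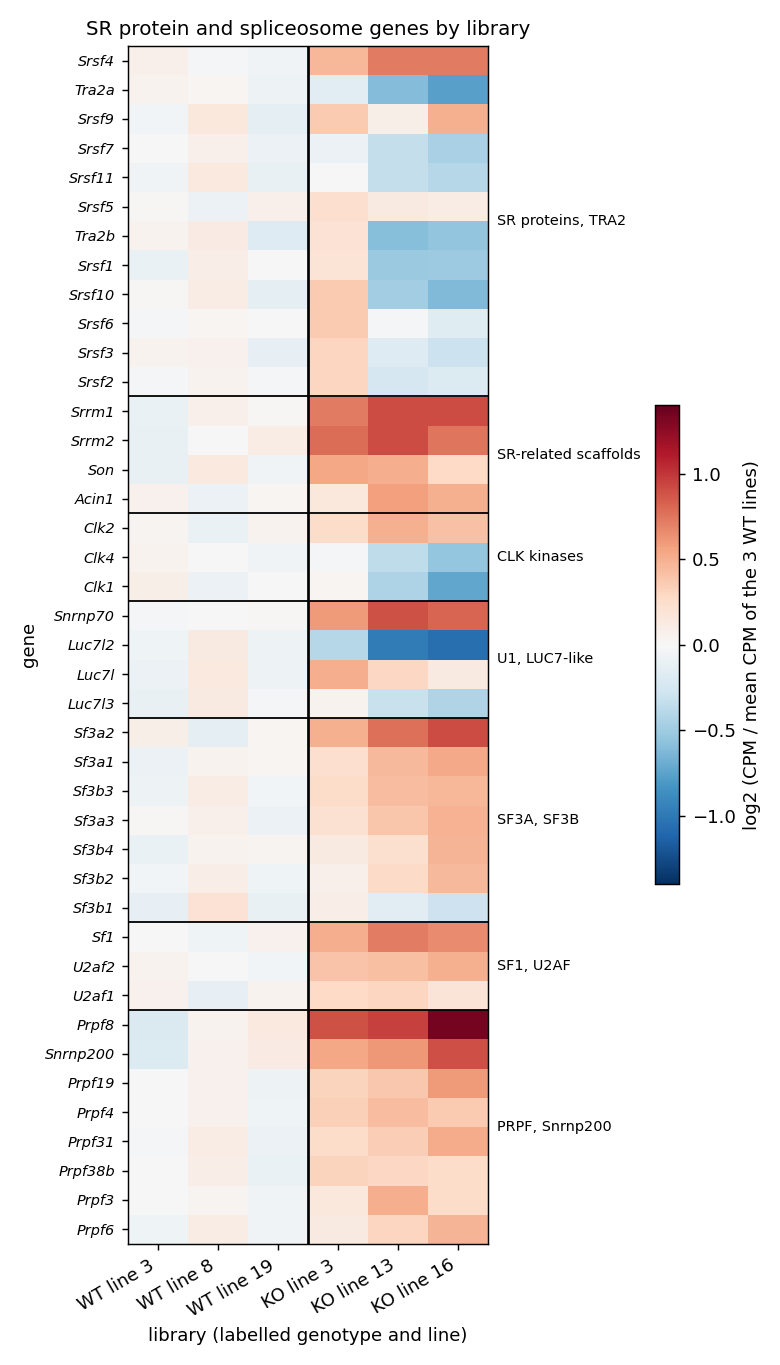
Each row is a gene and each column a library, and the colour gives the log2 ratio of its CPM to the mean of the 3 WT lines, with red above and blue below. The SF3A, SF1 and PRPF rows are red in all 3 libraries labelled KO, while many SR protein rows are red in KO line 3 and blue in KO lines 13 and 16.

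The number of calls depended on the libraries used. With WT line 3, WT line 19 or KO line 13 left out, 9, 11 and 11 genes were called higher. Higher calls over all genes also changed with the library left out, and their range is given in the last section. The shares of all genes called in these fits are not given here. A change in the 41 genes is therefore not separated from a change in all genes. With KO line 3 left out, 23 were called higher and 10 lower, beside 25.8% and 27.8% of all 14182 genes tested in that fit. The median log2 fold change of the members was 0.36. With WT line 19 left out as well, 23 were called higher and 11 lower, beside 25.9% and 28.3% of all genes. That fit set WT lines 3 and 8, with high Xist RNA, against KO lines 13 and 16, with little. Label and Xist state cannot be told apart in it. Without KO line 3 alone they are partly confounded, as only KO lines with little Xist remain. With any library other than KO line 3 left out, 1 gene was called lower. The 10 genes called lower without KO line 3 were Srsf1, Srsf7, Srsf10, Srsf11, Tra2a, Tra2b, Clk1, Clk4, Luc7l2 and Luc7l3, which are SR proteins, TRA2 activators, CLK kinases and LUC7-like proteins. As a share, 10 of 41 is below the 27.8% of all genes called lower in that fit.

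**Figure D2:**
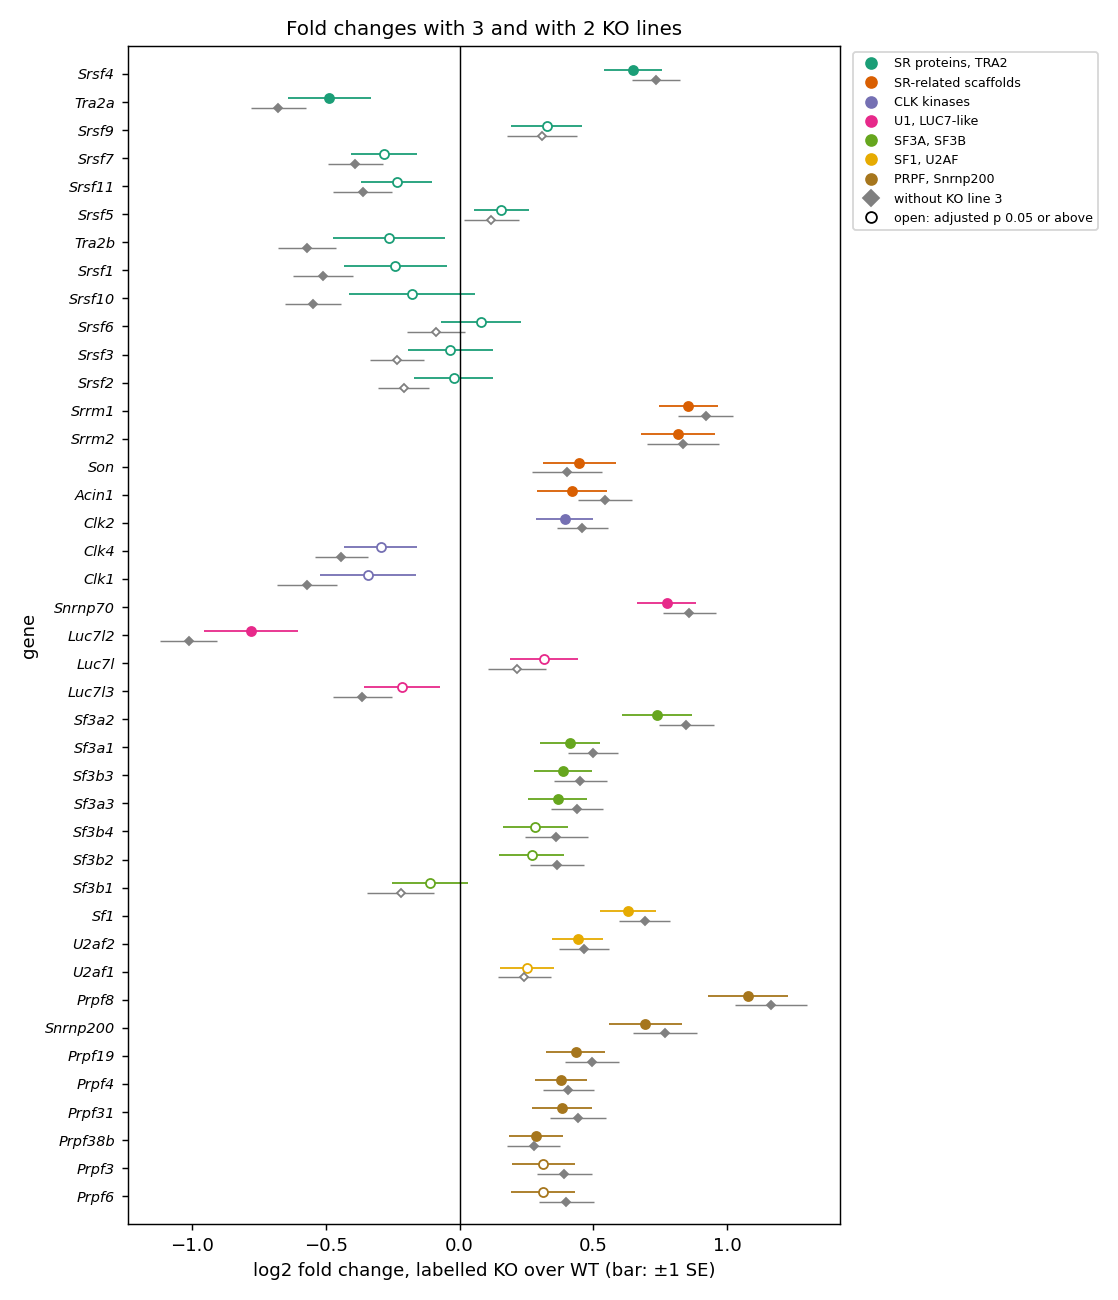
Log2 fold changes of the 41 genes with their SE, with all 6 libraries (circles, coloured by class) and without KO line 3 (grey diamonds); filled symbols have an adjusted p below 0.05. In both fits Prpf8 is furthest right (circle at 1.08, diamond at 1.16) and Luc7l2 furthest left (circle at -0.78, diamond at -1.01), and the diamonds of Srsf1, Srsf10 and Tra2b lie well to the left of their circles.

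Of the 12 SR proteins and TRA2 activators, 1 rose, 1 fell and 10 did not pass, with a median log2 fold change of -0.11. That is 8.33% in either direction, beside 21.8% higher and 20.4% lower over all tested genes. Srsf4 (chromosome 4, 131873617 to 131901706), a long SR protein that acts on alternative exons, was at 129, 122 and 119 CPM in WT lines 3, 8 and 19 and at 171, 205 and 205 CPM in KO lines 3, 13 and 16. The groups did not overlap, and Srsf4 rose (log2 fold change 0.65, SE 0.11, edgeR adjusted p = 0.00176). About 65.4% of the 50-base stretches of the longest Srsf4 transcript also occur in Gm12992, a noncoding gene on the opposite strand, and whether the counting used strand is not given in the sources used here. Tra2a (chromosome 6, 49243924 to 49264033), which binds GAA-rich exonic enhancers, was at 500.4, 493 and 462 CPM in WT and at 434, 319 and 286 CPM in KO lines 3, 13 and 16. All libraries labelled KO were below WT, with KO line 3 nearest to it, and Tra2a fell (log2 fold change -0.49, SE 0.15, edgeR adjusted p = 0.0319). Its call was lost without WT line 3 (0.0627), WT line 8 (0.0845), WT line 19 (0.0576), KO line 13 (0.115) or KO line 16 (0.0864), and without KO line 3 its log2 fold change was -0.68 (adjusted p = 1.09e-04). Srsf9, a short SR protein, was at 53.4, 60.6 and 50.2 CPM in WT and at 70.5, 58.1 and 77.2 CPM in the KO lines in the same order; its values overlapped (log2 fold change 0.32, SE 0.13, edgeR adjusted p = 0.0795), and it passed without KO line 13 (adjusted p = 0.0416).

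Several other SR proteins spread more widely over the lines labelled KO than over the WT lines, and 4 of them, chosen because of this pattern, are given in full. Srsf1, the first SR protein described and a general splicing factor, was at 1008, 1150 and 1071 CPM in WT and at 1228, 753 and 754 CPM in KO lines 3, 13 and 16. KO line 3 was above every WT library and the other KO lines below every WT library (log2 fold change -0.24, SE 0.19, edgeR adjusted p = 0.346). Srsf10, an SR protein that represses splicing when dephosphorylated, had the same order at 326, 346 and 294 CPM against 416, 231 and 209 CPM. Tra2b, the paralog of Tra2a, was at 136, 143 and 116 CPM and 152, 87.3 and 89.9 CPM, again with KO line 3 highest of the 6. Srsf7, which has a zinc knuckle beside its RNA-binding domain, was at 596, 625 and 563 CPM in WT and 561, 472 and 433 CPM in the KO lines; all KO values were below WT, KO line 3 by little (log2 fold change -0.28, SE 0.12, edgeR adjusted p = 0.0928). Without KO line 3 the log2 fold changes of Srsf1, Srsf10, Tra2b and Srsf7 were -0.51 (adjusted p = 0.00183), -0.55 (adjusted p = 7.32e-04), -0.57 (adjusted p = 6.85e-04) and -0.39 (adjusted p = 0.00576), all called lower. Of all genes tested in that fit 27.8% were called lower. The 4 genes were chosen for their pattern over the KO lines, so these calls are no separate evidence of it. None of the 4 was called lower when trends on GC content and length were removed too.

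Over all 41 genes KO line 3 held the highest value of the 6 libraries in 10 (24.4%), near the 23.3% of all tested genes. In this class it did so in 7 of the 12 genes (58.3%). Those 7 were Srsf1, Srsf2, Srsf3, Srsf5, Srsf6, Srsf10 and Tra2b. In sum the class held 5795 to 6190 CPM in WT, 6792 CPM in KO line 3, and 5090 and 4872 CPM in KO lines 13 and 16, so the WT range lay between the libraries labelled KO. Without KO line 3, 1 of the 12 was called higher (Srsf4) and 6 lower, with a median log2 fold change of -0.30. Of all genes tested in that fit, 25.8% were called higher and 27.8% lower. Srsf11, an SR-related protein, went from -0.24 to -0.36 (adjusted p = 0.0131). Srsf2, Srsf3, Srsf5 and Srsf6 were not called with or without KO line 3: their log2 fold changes were -0.02, -0.04, 0.16 and 0.08 over all libraries. With GC and length trends removed Srsf5 was called higher, at 0.45 (adjusted p = 0.017), and with KO line 3 left out as well Srsf2 was called lower, at -0.197 (adjusted p = 0.0344). Parts of Srsf2 overlap exons of Mettl23 and Mfsd11, and 31.5% and 27.8% of the 50-base stretches of Srsf3 and Srsf5 recur in other genes, so their values are less certain.

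**Figure D3:**
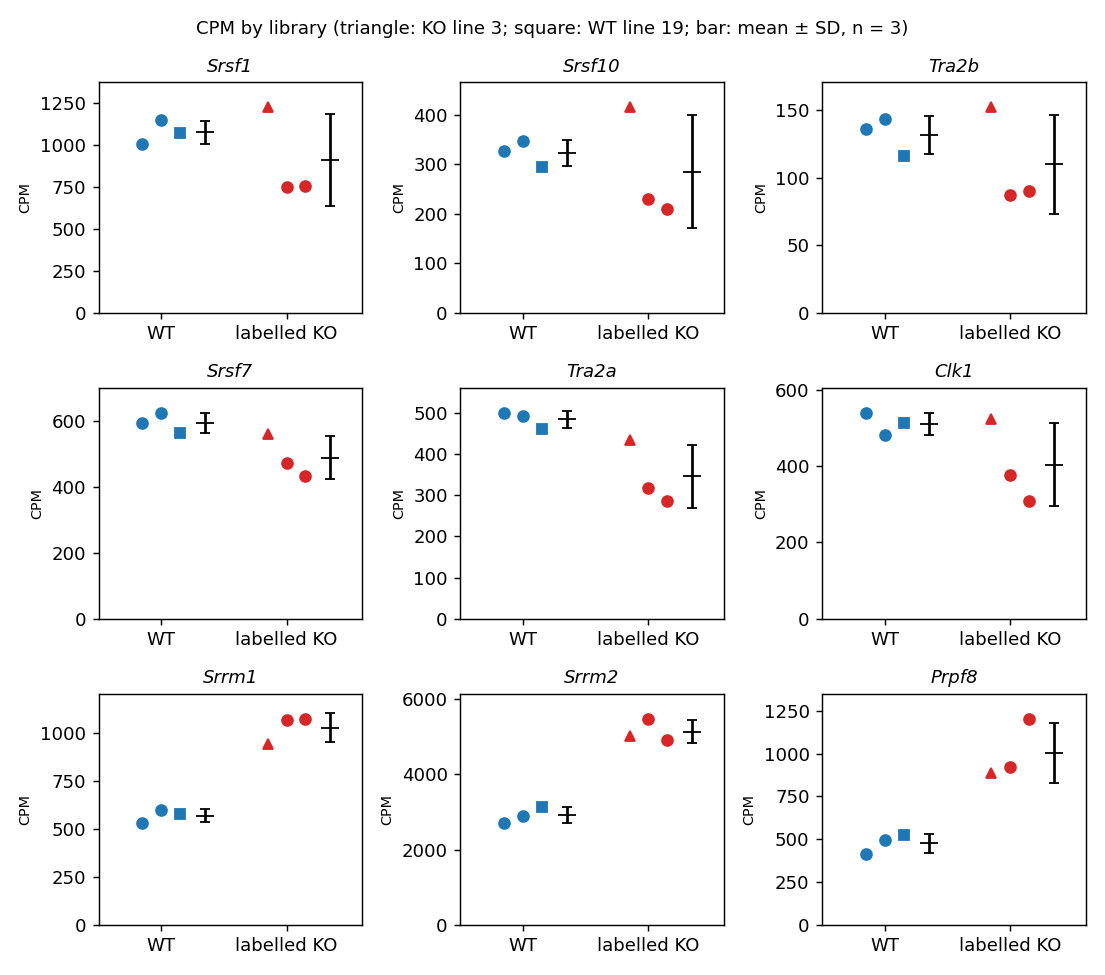
CPM of 9 genes in each library on axes from 0, WT in blue and libraries labelled KO in red, with KO line 3 as a triangle, WT line 19 as a square, and the mean ± SD of each group (n = 3). In Srsf1, Srsf10 and Tra2b the triangle is the highest point and the other KO lines are the lowest, while in Srrm1, Srrm2 and Prpf8 all red points are above all blue points.

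All 4 large SR-related proteins rose, beside 21.8% of all tested genes. These proteins hold long arginine- and serine-rich stretches without the usual SR protein layout, and SON and SRRM2 form the core of nuclear speckles. Srrm1 (chromosome 4, 135320484 to 135353321), a coactivator that bridges SR proteins and the exon junction complex, was at 532, 599 and 575 CPM in WT lines 3, 8 and 19 and at 941, 1069 and 1074 CPM in KO lines 3, 13 and 16. Every library labelled KO was far above WT (log2 fold change 0.85, SE 0.11, edgeR adjusted p = 4.64e-04). Srrm2 (chromosome 17, 23790532 to 23824741) was the most abundant of the 41 genes per length, at 2713, 2904 and 3140 CPM in WT and 5023, 5479 and 4905 CPM in the KO lines, again without overlap (log2 fold change 0.81, SE 0.14, edgeR adjusted p = 0.00185). Son was at 1483, 1754 and 1532 CPM against 2320, 2258 and 1925 CPM (log2 fold change 0.45, SE 0.14, edgeR adjusted p = 0.0272), and Acin1, a protein of the exon junction's ASAP complex, at 577, 522 and 566 CPM against 615, 826 and 786 CPM (log2 fold change 0.42, SE 0.13, edgeR adjusted p = 0.0294). Together the 4 genes held 5305 to 5813 CPM in WT and 8692 to 9633 CPM in the libraries labelled KO, so that KO line 3 did not stand apart here as it did for SR proteins. The call of Son was lost without WT line 3 (0.137), WT line 19 (0.0811) or KO line 13 (0.0906) and that of Acin1 without WT line 3 (0.0877), WT line 8 (0.108), WT line 19 (0.0694), KO line 13 (0.12) or KO line 16 (0.0764) (adjusted p in parentheses).

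The CLK kinases, which phosphorylate SR proteins, did not move together. Clk2 was at 190.3, 175 and 193 CPM in WT and at 223, 263 and 246 CPM in KO lines 3, 13 and 16, and rose without overlap (log2 fold change 0.39, SE 0.11, edgeR adjusted p = 0.0159). Its call was lost without WT line 3 (0.0742), WT line 8 (0.0684) or KO line 13 (0.0737). Clk1 (chromosome 1, 58410189 to 58424066), whose RNA is known for detained introns, was at 539.8, 482 and 512 CPM in WT and 523, 378 and 309.5 CPM in the KO lines. KO line 3 lay within the WT range and the other 2 KO lines below it (log2 fold change -0.34, SE 0.18, edgeR adjusted p = 0.152). Clk4, the nearest relative of Clk1, was at 256, 249 and 239 CPM and 243, 194 and 170.2 CPM, with the same pattern (log2 fold change -0.29, SE 0.14, edgeR adjusted p = 0.113). Without KO line 3, Clk1 and Clk4 were both called lower, at -0.57 (adjusted p = 8.72e-04) and -0.44 (adjusted p = 0.00213), but not when trends on GC content and length were removed too. Per length, the ratio of Clk1 to Clk2 was 1.85, 1.8 and 1.73 in WT and 1.53, 0.935 and 0.819 in KO lines 3, 13 and 16, so that Clk2 was above Clk1 only in KO lines 13 and 16. The ratio of Clk1 to Clk4 overlapped between the groups. GENCODE lists 7 transcripts with a retained intron for each of Clk1 and Clk4, and 4 for Clk2.

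In the U1 class the core protein Snrnp70 rose and the LUC7-like proteins, which help U1 choose 5′ splice sites, went different ways. Snrnp70 (chromosome 7, 45376453 to 45395742) was at 499, 508 and 515 CPM in WT lines 3, 8 and 19 and at 768, 940.5 and 893 CPM in KO lines 3, 13 and 16. The 3 WT values lay close together and all KO values above them (log2 fold change 0.77, SE 0.11, edgeR adjusted p = 7.92e-04). Luc7l2 (chromosome 6, 38551334 to 38609470) was at 609, 694 and 608 CPM in WT and at 484, 323 and 307 CPM in the KO lines, which is the lowest fold change of the 41 genes (log2 fold change -0.78, SE 0.18, edgeR adjusted p = 0.00724). All KO values were below WT, and without KO line 3 its log2 fold change was -1.01 (adjusted p = 5.40e-06). A noncoding gene, Gm26699, overlaps Luc7l2 exons on the opposite strand, and 18.0% of the 50-base stretches of Luc7l2 recur in other genes. Luc7l was at 460, 534 and 463 CPM and 689.9, 594 and 530.1 CPM; WT line 8 was above KO line 16, and it did not pass (log2 fold change 0.32, SE 0.13, edgeR adjusted p = 0.0743), though it did without KO line 16 (0.035). Luc7l3 was at 704, 827 and 742 CPM and 783, 608 and 567 CPM, did not pass over all libraries (log2 fold change -0.22, SE 0.14, edgeR adjusted p = 0.249) and was called lower without KO line 3, at -0.36 (adjusted p = 0.0134).

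Within the LUC7-like family the balance shifted in every library labelled KO. Per length, Luc7l2 made up 24.2, 23.7 and 23.5% of the family in WT lines 3, 8 and 19, and 16.7, 14.1 and 14.6% in KO lines 3, 13 and 16. Luc7l went the other way, from 28.8 to 29.4% in WT to 38.3, 41.7 and 40.5%. Luc7l3 held 46.5 to 47.7% in WT and 44.2 to 45.0% in the libraries labelled KO. The ratio of Luc7l2 to Luc7l per length was 0.809 to 0.824 in WT and 0.338 to 0.437 in the libraries labelled KO, and the gap between the groups was wider than the range within either. The TRA2 pair showed no such shift: Tra2a held 82.1 to 84.1% of the pair in WT and 79.1 to 82.9% in the libraries labelled KO, and these ranges overlap. With 3 libraries a group the smallest p of an exact permutation test is 0.1, so the shares are given without a test.

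**Figure D4:**
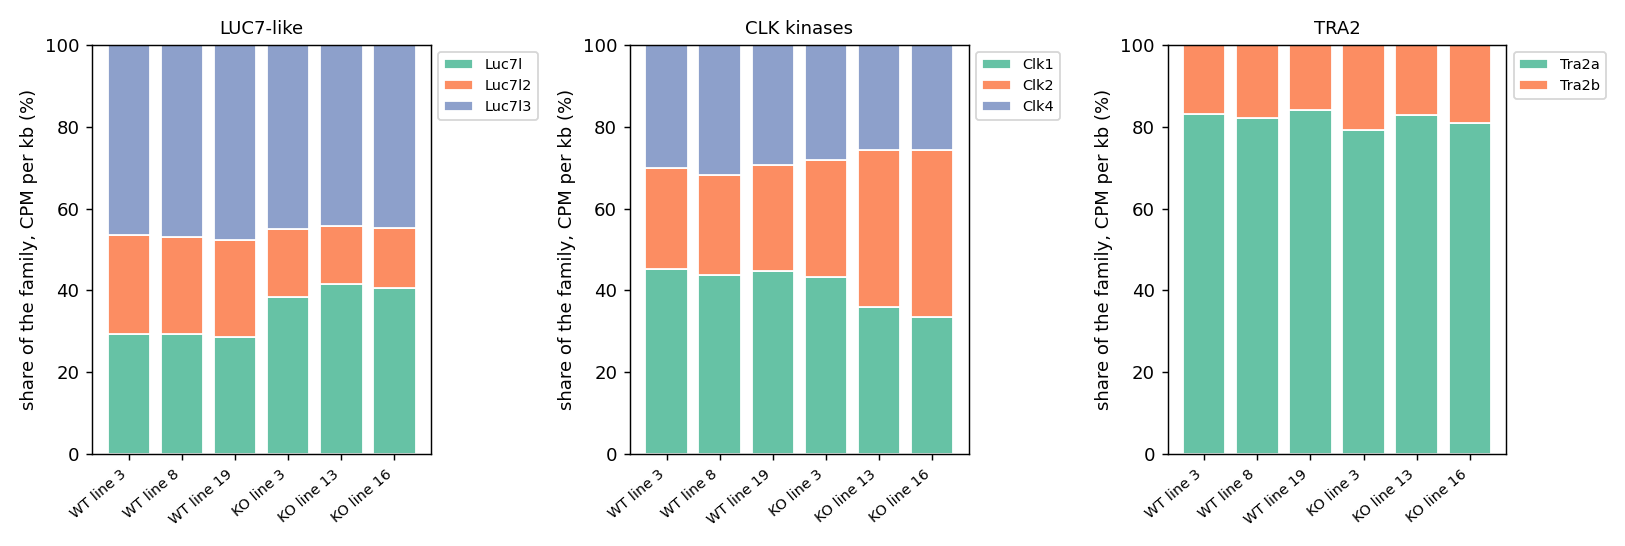
Shares of the LUC7-like, CLK and TRA2 families held by each gene in each library, from CPM per kb of exon, stacked to 100%. The Luc7l2 band narrows in all 3 libraries labelled KO, the Clk2 band widens most in KO lines 13 and 16, and the TRA2 bands hardly differ.

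Of the 7 subunits of SF3A and SF3B, which bind U2 and hold the branch point, 4 rose, 0 fell and 3 did not pass. All 3 SF3A subunits were among those that rose. Of all tested genes 21.8% were called higher and 20.4% lower. Sf3a2 (chromosome 10, 80798198 to 80804924) was at 57.8, 50.2 and 55.8 CPM in WT lines 3, 8 and 19 and at 76.8, 93.1 and 103 CPM in KO lines 3, 13 and 16, the largest change of the class (log2 fold change 0.74, SE 0.13, edgeR adjusted p = 0.00228). Part of Sf3a2 overlaps exons of Plekhj1 on the opposite strand. Sf3a1 was at 149.9, 165 and 162 CPM against 187, 218 and 229.6 CPM (log2 fold change 0.41, SE 0.11, edgeR adjusted p = 0.0162). Sf3b3, a scaffold subunit of SF3B, was at 334, 378 and 342 CPM against 418, 473 and 484 CPM (log2 fold change 0.38, SE 0.11, edgeR adjusted p = 0.0194). In these 3 genes every library labelled KO was above every WT library, with KO line 3 the nearest to WT. Sf3a3 rose by a log2 fold change of 0.37. The calls of Sf3a1, Sf3b3 and Sf3a3 each rested on single libraries: Sf3a1 lost its call without WT line 3 (0.106) or KO line 13 (0.0613), Sf3b3 without WT line 3 (0.119), WT line 19 (0.0653), KO line 13 (0.0747) or KO line 16 (0.0531) and Sf3a3 without WT line 3 (0.109), WT line 8 (0.0544), WT line 19 (0.0885), KO line 13 (0.0752) or KO line 16 (0.0686).

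Sf3b1, the subunit that touches the branch point, was at 876, 1086 and 879 CPM in WT and at 1008, 850.4 and 773 CPM in KO lines 3, 13 and 16, and its groups overlapped (log2 fold change -0.11, SE 0.14, edgeR adjusted p = 0.56). Sf3b2 and Sf3b4 had log2 fold changes of 0.27 and 0.28 and did not pass over all libraries, but were called higher without KO line 3, at 0.36 (adjusted p = 0.00827) and 0.36 (adjusted p = 0.0198). About 51.2% of the 50-base stretches of Sf3b4 recur in other genes, mostly in the predicted gene Gm7935. The ratio of Prpf8 to Sf3b1 per length, a pair picked after the values were seen, was 0.717, 0.691 and 0.904 in WT and 1.34, 1.65 and 2.37 in the KO lines.

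Factors that first mark the 3′ end of the intron were higher as well, 2 of 3 past the threshold. Of all tested genes 21.8% were called higher. Sf1 (chromosome 19, 6363690 to 6378030), which binds the branch point before U2, was at 396, 383 and 415 CPM in WT and at 565, 652 and 629 CPM in KO lines 3, 13 and 16. The KO values lay well above WT (log2 fold change 0.63, SE 0.10, edgeR adjusted p = 0.00161). U2af2, the large U2AF subunit, which binds the polypyrimidine tract, was at 244, 235 and 230.3 CPM against 312, 316 and 334 CPM (log2 fold change 0.44, SE 0.09, edgeR adjusted p = 0.00581). Its partner U2af1, which reads the AG at the end of the intron, was at 121, 107 and 119.7 CPM against 140.5, 142 and 131 CPM. The U2af1 groups did not overlap either, but the difference did not pass (log2 fold change 0.25, SE 0.10, edgeR adjusted p = 0.0693). Near-identical copies leave these 2 genes uncertain: 59.4% of the 50-base stretches of U2af1 and 29.9% of those of U2af2 recur in other genes.

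All 8 PRPF and U5 genes had higher values in every library labelled KO than in any WT library, and 6 of them were called. Of all tested genes, 28.6% had such values and 21.8% were called higher. Prpf8 (chromosome 11, 75486816 to 75509449), the large U5 protein at the catalytic centre, was at 412, 493 and 521 CPM in WT lines 3, 8 and 19 and at 884, 921 and 1203 CPM in KO lines 3, 13 and 16. Its mean went from 475 ± 56.6 to 1003 ± 174 CPM (SD, n = 3 each), the largest fold change of the 41 genes (log2 fold change 1.08, SE 0.15, edgeR adjusted p = 7.07e-04). Snrnp200, the U5 helicase, was at 235, 280.1 and 291 CPM against 390.4, 408 and 503 CPM (log2 fold change 0.69, SE 0.14, edgeR adjusted p = 0.00371). Prpf19, the ubiquitin ligase of the complex that activates the spliceosome, was at 146, 150.3 and 138 CPM against 179, 187 and 219 CPM (log2 fold change 0.43, SE 0.11, edgeR adjusted p = 0.0127). In Prpf8, Snrnp200 and Prpf19 alike, KO line 16 was highest and KO line 3 lowest among the libraries labelled KO.

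The tri-snRNP proteins Prpf4 and Prpf31 rose by log2 fold changes of 0.38 and 0.38, and Prpf38b, a protein of the same assembly step, by 0.29. Prpf3 and Prpf6, which sit in the U4/U6 and U5 parts, had values of 0.31 and 0.31 and did not pass over all libraries (edgeR adjusted p = 0.059 and 0.0617), but did without KO line 3 (adjusted p = 0.00577 and 0.00496). Without KO line 3 all 8 genes were called higher, beside 25.8% of all genes tested in that fit. Prpf19 lost its call without WT line 3 (0.0622) or WT line 19 (0.0517), Prpf4 without WT line 3 (0.0832), WT line 19 (0.0518) or KO line 13 (0.0547), and Prpf31 without WT line 3 (0.114), WT line 19 (0.083), KO line 13 (0.0563) or KO line 16 (0.0635). The call of Prpf38b was lost without any of the libraries other than KO line 3 (adjusted p from 0.0591 to 0.177), and with DESeq2 size factors, library size alone or no filter (adjusted p = 0.0549, 0.0669 and 0.061). Prpf8 and Snrnp200 were called in every alternative run, as were Srsf4, Srrm1, Srrm2, Snrnp70, Luc7l2, Sf3a2, Sf1 and U2af2, 10 of the 21 called genes.

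Per kb of exon the 41 genes covered a wide range of levels. In WT, Srrm2 was highest at 227 CPM per kb, followed by Srsf6, Srsf1, Srsf7, Srsf5 and Srsf2 at 207, 188, 167, 167 and 159.6. The lowest were Prpf31, Sf3b4 and Prpf3 at 11.3, 12.9 and 13.7 CPM per kb. The SR class was spread over the whole range, with Tra2b at 14.3, Srsf9 at 33.1 and Srsf4 at 34.7 CPM per kb beside Snrnp200 at 34.3. Prpf8 and Prpf38b were at 63.7 and 55.7, the highest of the PRPF class. In the libraries labelled KO, Srrm2 was at 399.9 CPM per kb, while Prpf8, at 134, came close to Srsf7 at 138. The length used is that of all annotated exons together, so a gene with long rarely used exons appears lower.

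The fold changes of the 41 genes ran with their base composition. Across these genes, Pearson's r between the log2 fold change and the GC content of the longest transcript was 0.701 (Spearman's rho 0.705, n = 41), against 0.124 (rho 0.185) across the 13743 tested genes with a value; genes are not independent replicates, and they share the same 6 libraries. The SR and TRA2 class had a median GC content of 42.2%, Clk1 and Clk4 39.2 and 38.8%, the SF3 class 50%, the PRPF class 50.7%, and SF1 with U2AF 54.4%. When trends of each library on GC content and exon length were removed, 23 genes were called higher and 2 lower, beside 26.3% and 25.1% of all genes, and r was 0.437. Prpf8, Srrm1 and Luc7l2 then had log2 fold changes of 0.94, 0.90 and -0.69, while Clk1, Clk4, Srsf1 and Tra2b were at -0.09, 0.02, -0.03 and -0.06. Acin1 lost its call (adjusted p = 0.142), and Srsf5 (0.45), Srsf9 (0.43), Luc7l, Prpf3 and Prpf6 gained one. With the trends removed and KO line 3 left out, an alternative added after the data were seen, 24 genes were called higher and 4 lower (Tra2a, Luc7l2, Srsf2 and Srsf11). The share of all genes called in that fit is not given here. Srsf1, Srsf7, Srsf10, Tra2b, Clk1, Clk4 and Luc7l3 were thus called lower without KO line 3 only when these trends were left in.

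**Figure D5:**
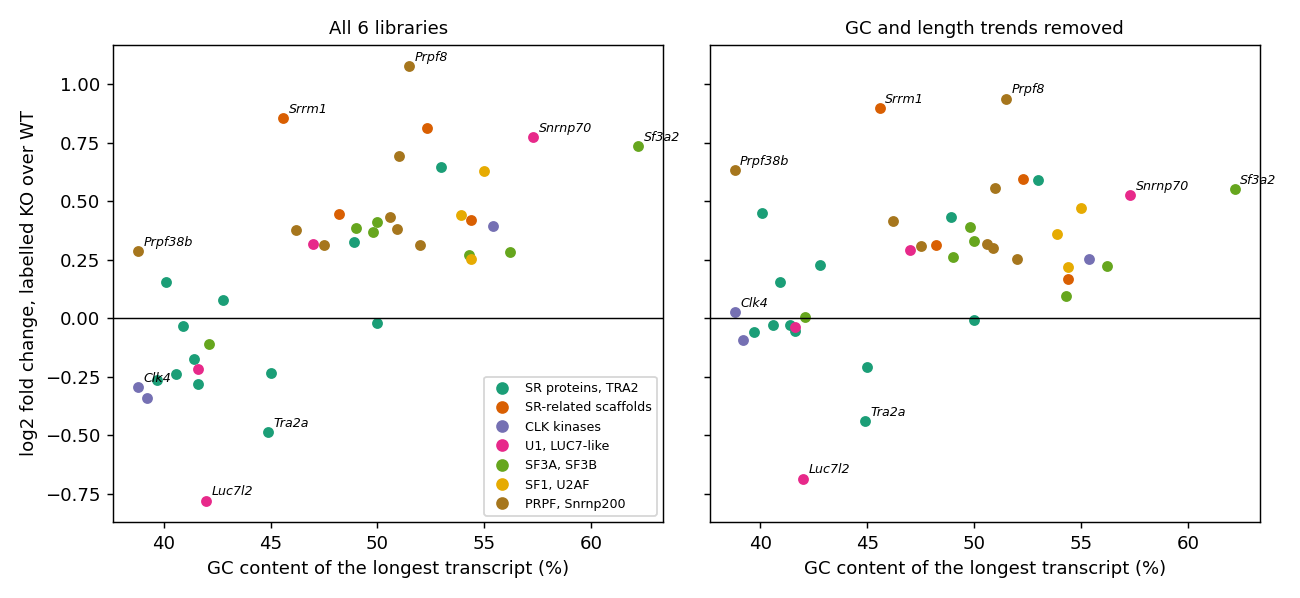
Log2 fold change of each of the 41 genes against the GC content of its longest transcript, coloured by class, with all 6 libraries (left) and after removal of each library's trends on GC content and length (right). On the left the genes of lowest GC content lie mostly below 0, and on the right Clk4 moves to 0.02 while Luc7l2 and Tra2a stay low and Prpf8 and Srrm1 stay high.

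In the main fit, other splicing genes, listed by role, leaned the same way. Of 149 such genes 146 were tested, and 52 were called higher (35.6%), 3 lower (2.05%) and 91 not, beside the 21.8% and 20.4% of all tested genes, with a median log2 fold change of 0.23. The counts of these lists are from the main fit alone and are not given without KO line 3. Some listed genes, such as Prpf39 and Syncrip, were above every WT library in KO line 3 and below every WT library in KO lines 13 and 16. In the following, log2 fold changes stand in parentheses. Among the Sm and other proteins of U1 and U2, 5 of 11 tested rose and 0 fell, such as the U1 protein Snrpa (0.62) and the Sm protein Snrpb (0.45). Of the LSm proteins, which bind the 3′ end of U6 RNA, 2 of 6 rose, Lsm7 (0.49) and Lsm2 (0.36). The other U2-associated proteins rose in 5 of 14 cases, with Cherp (0.74) and the helicase Ddx42 (0.50) first, and the SF3B subunit Phf5a (0.50), added for its complex, was among the 5. In the rest of the U4/U6.U5 particle 5 of 10 rose, led by Snrnp40 (0.51) and the GTPase Eftud2 (0.40), both U5 proteins that sit beside PRPF8.

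Of 14 genes of the PRP19 complex and related proteins, which join later, 2 rose (14.3%, beside 21.8% of all tested genes), Aqr (0.39) and Plrg1 (0.38), and values did not overlap, higher in KO, for 8 of the 14, beside 28.6% of all tested genes. Of 10 factors of the catalytic steps 3 rose, with the cyclophilin Cwc27 (0.86) and the helicase Dhx38 (0.51) first. In the minor spliceosome 1 of 8 rose, Zrsr2 (0.40), which reads the 3′ splice site of rare introns. The other U1-associated proteins gave 0 higher and 1 lower of 7: Tial1 (-0.77), a U-rich RNA binder, fell from 674, 685 and 699.6 CPM in WT to 535, 355 and 314 CPM in KO lines 3, 13 and 16. As in Tra2a, KO line 3 lay between WT and the other KO lines in Tial1.

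The partners that act on SR proteins or on poison-exon RNA were partly higher. Among all tested genes 21.8% were called higher and 20.4% lower. Of 7 genes that encode the kinases or the importer of SR proteins, 3 rose and 0 fell. The 3 were the importer Tnpo3 (0.54) and the kinases Srpk3 (1.54) and Srpk1 (0.39). Srpk3 was at 3.02 CPM or less on average in either group. Exon junction proteins rose in 4 of 8 cases, Rnps1 (0.68) and Eif4a3 (0.71) first, and factors of nonsense-mediated decay, which removes RNA with a poison exon, in 4 of 10, Smg5 (0.69) and Smg9 (0.50) first. Other SR-related proteins went both ways, 5 higher (29.4%) and 2 lower (11.8%) of 17. The neural microexon activator Srrm4 (1.79) and Sfswap (0.60) were higher, and Srsf12 (-0.67) and Rsrp1 (-0.45) lower. Srrm4 was at 1.43, 1.88 and 2.01 CPM in WT and 3.79, 8.08 and 6.27 CPM in the KO lines. The hnRNP proteins, which often oppose SR proteins at exons, rose in 13 of 24 cases and fell in 0, with Hnrnpab (0.96) and the polypyrimidine tract repressor Ptbp1 (0.61) first. Hnrnpa2b1, with the highest CPM of them, did not pass (log2 fold change 0.04, SE 0.20, edgeR adjusted p = 0.882).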

How the data were processed

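Nuclear RNA of 3 WT lines and 3 lines labelled Fmr1 KO was sequenced, 1 library a line. The deposited values are raw counts of reads for each gene symbol. Among the tools named in the submitters' processing notes are HTSeq 0.7.2, cutadapt 1.14, STAR and DESeq2, with the build mm10; neither annotation nor strand setting is given there. The main test was edgeR 4.0.16 under R 4.3.3 (filterByExpr, TMM scaling, robust quasi-likelihood fit over the 6 libraries, 4 residual degrees of freedom, two-sided, Benjamini-Hochberg over 13925 genes, threshold 0.05), and the SE came from its F statistic. Alternatives used limma 3.58.1, DESeq2 1.42.0, other size factors and filters, removal of GC and length trends (loess, span 0.4), and left-out libraries. GENCODE M21 (GRCm38, which is mm10) gave positions, lengths, GC content, overlaps and exon sequences, and 22830 of 23337 symbols were matched. The gene set and the lists were chosen with earlier results of these data known. Values in every library were printed for up to 3 genes of each class by smallest p and for each gene called lower, and up to 2 called genes by smallest p were named per other list; Srsf1, Srsf7, Srsf10, Tra2b, Acin1, Luc7l3, Sf3b1, Phf5a, Srpk1, Srsf12, Rsrp1, Hnrnpa2b1 and the gene ratios were added with their values in view. In a simulation of the KO against WT comparison with 13925 genes, the share of changed genes called was 22.4% at 1.5-fold, 79.1% at 2-fold and 90.9% at 4-fold, and 6.57% of calls were false. Precision is set by the spread between lines; the design text calls the lines independent.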

Additional observations from a re-analysis of the deposited data

How the results depend on the processing

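Leaving out each library in turn gave 9 to 23 of the 41 genes called higher and 1 to 10 called lower, medians of 0.278 to 0.365, and 1994 to 3666 higher calls over all genes. Without WT line 19 and KO line 3 together, 11 of the 41 were called lower and the median was 0.367. In that fit the label cannot be told apart from the Xist state of the lines. With GC and length trends removed and KO line 3 left out, 4 were called lower. Other size factors, filters and tests gave 18 or 19 genes higher and 2 lower. Signs turned only in genes that had no call in the main test. With 1 library left out the log2 fold changes ran from -0.208 to 0.078 in Srsf2, -0.234 to 0.087 in Srsf3, -0.088 to 0.198 in Srsf6 and -0.547 to 0.01 in Srsf10. Srsf6 was at -0.094 without WT line 19 and KO line 3. With trends removed, Srsf3, Clk4 and Sf3b1 were at 0.154, 0.025 and 0.005, and without KO line 3 as well at 0.147, 0.108 and 0.045. The cause of these changes was not tested. No paired analysis was possible because the genotypes share only 1 line number. With 3 lines a group, most changes of 1.5-fold were missed in the simulation. It changed only 200 genes picked at random, so it does not give the share missed among the 41 genes.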
